A study of Mus musculus with 6 samples.

Results

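Imprinted genes are transcribed mainly from the copy inherited from 1 parent, and a group of them that controls fetal growth has been described as a network around Igf2, the fetal growth hormone insulin-like growth factor 2. The genes described here are 10 members of that network, namely H19, Cdkn1c, Phlda2, Dlk1, Peg3, Plagl1, Grb10, Gnas, Mest and Meg3, and they were taken as every array probe whose annotated symbol or synonym was one of these names. That rule found 30 of the 45281 probes, for 9 of the 10 genes. No probe used here carries the symbol H19, so H19 was not analysed here. Of the 30 probes, 18 (for 8 genes) were detected and tested. Detection means a detection p-value below 0.05, which sets a probe against background, on 3 or more of the 6 arrays.

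Total RNA of newborn mouse liver was hybridised to Illumina BeadChips, with 3 wild-type (WT) arrays and 3 arrays of the genotype labelled as Igf2 knockout (KO), all on a mixed 129 and C57Bl/6 background. Not stated in the labels are the part of Igf2 removed, the parent that passed on the altered copy, and whether an array holds RNA of 1 pup, so the p-values rest on array-to-array spread alone, which may in part be technical. The comparison asks how liver transcript levels at birth differ between the genotypes. The arrays give the total level of a transcript and do not tell the parental copies apart.

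Igf2, the targeted gene, was checked first. Its probe had signals of 19805, 19195 and 18656 on the WT arrays and 9337, 11866 and 9676 on the arrays labelled knockout, which left 53.6% of the WT signal (log2 change -0.91 ± 0.11 SE, limma adjusted p = 0.00216). The groups did not overlap, but Igf2 was far from absent, and its mean stayed at percentile 99.3 of the tested probes. Whether the probe lies in the part removed was not analysed here, so it does not check the label as a full loss of Igf2. Below, "knockout" stands for the arrays so labelled. Igf2r, the imprinted receptor that clears IGF2 from the cell surface, fell on both of its probes, to 59.4% and 56.1% of WT (limma adjusted p = 0.0329 and 0.0211).

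In the mouse, paternally expressed members such as Dlk1, Peg3, Plagl1 and Mest and maternally expressed members such as H19, Cdkn1c, Phlda2, Meg3 and, in most tissues, Grb10 lie in a few chromosomal clusters with shared control regions. Cdkn1c and Phlda2 belong to a cluster beside Igf2 and H19, and Dlk1 and Meg3 share another. Several of the maternally expressed genes are known to restrain growth of the fetus or placenta, and many of the group are transcribed strongly in fetal liver and fall after birth.

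Phlda2, Peg3 and Dlk1 stand for a lower, a higher and an uncalled gene, and their sequences upstream of the transcript start are shown because promoters of imprinted genes are often rich in CpG, the dinucleotide that DNA methylation acts on. Each is the 250 bases before the start in RefSeq (build GRCm38.p6), written 5′ to 3′ on the strand of the gene, with every CpG in capitals. Phlda2 is on the minus strand at chr7:143502525-143502774, Peg3 on the minus strand at chr7:6730420-6730669 and Dlk1 on the plus strand at chr12:109452573-109452822.
Phlda2: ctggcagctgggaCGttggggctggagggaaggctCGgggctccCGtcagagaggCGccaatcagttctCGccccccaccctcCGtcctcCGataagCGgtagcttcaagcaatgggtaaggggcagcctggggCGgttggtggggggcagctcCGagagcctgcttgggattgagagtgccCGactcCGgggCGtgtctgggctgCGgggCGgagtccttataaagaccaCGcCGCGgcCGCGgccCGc
Peg3: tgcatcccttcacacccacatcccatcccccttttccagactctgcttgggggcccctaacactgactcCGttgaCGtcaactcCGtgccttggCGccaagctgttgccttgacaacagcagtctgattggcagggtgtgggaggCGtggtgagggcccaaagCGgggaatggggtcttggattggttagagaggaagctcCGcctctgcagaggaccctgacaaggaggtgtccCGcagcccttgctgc
Dlk1: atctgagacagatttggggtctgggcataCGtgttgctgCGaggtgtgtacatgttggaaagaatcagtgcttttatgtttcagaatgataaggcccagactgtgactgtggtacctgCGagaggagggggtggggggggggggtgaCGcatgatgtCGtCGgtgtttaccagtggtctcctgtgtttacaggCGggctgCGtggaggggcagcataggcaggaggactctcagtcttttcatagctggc
The Phlda2 window held 21 CpG, a number reached by 16.3% of the 32851 RefSeq windows of that length. The Peg3 and Dlk1 windows held 8 each, reached by 43.0% of windows, against a median of 6. Over the 15 windows available for 8 of the genes, the number of CpG ran from 0 in a Meg3 window to 40 in a Grb10 window. Short motifs were searched on both strands, and no match in the windows shown overlapped another. AAGATGGC, a core of YY1 sites, was in 0 of the 15 windows and in 1.56% of all windows. GTAAACA, a core of sites of FOXO factors, was found 2 times in the Dlk1 window and in no other of the 15, against 3.17% of all windows. GGGGCCCC, a GC-rich core known for PLAGL1, which reads the same on both strands, was in the Peg3 window alone of the 15 and in 0.89% of all windows. A match of letters is a description and does not show binding.

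Phlda2 was lower and Peg3 was higher in the knockout, Grb10 and Gnas were lower by 1 probe each, and Dlk1 and Cdkn1c did not pass the test. Of the 18 tested probes, 3 were higher (2 of Peg3, 1 of Gnas) and 3 lower (Phlda2, 1 of Grb10, 1 of Gnas) at an adjusted p under 0.05 in limma, a linear model fitted to all 21958 probes that passed the detection filter. The Gnas probe that was higher was below detection on every WT array and entered the test through the knockout arrays alone. With detection required on all 6 arrays, 16 member probes were tested, and 2 were higher and 3 lower. In that fit 1408 of all 19190 probes were higher and 1996 lower. In the first fit 16% of all probes were called, 6.72% higher and 9.27% lower. Values of the genotypes did not overlap for 3 probes that were higher and 7 that were lower, where 17.7% and 19.7% of all probes did so (37.4% in either direction). The median log2 fold change of the 18 probes was -0.21, and that of all probes -0.004. By the brightest tested probe of each gene, 1 of 8 genes was higher and 1 lower. Across all 11346 genes, the brightest probes were higher in 7.75% and lower in 8.29%. The number of called member probes was 4 when WT array 1 was left out, 9 when WT array 3 was, 3 when knockout array 1 was and 1 when knockout arrays 1 and 2 both were. It was also 1 with the lung marker level added to the fit, and in both settings this was that Gnas probe (adjusted p = 0.0412 and 0.0214).

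**Figure D1:**
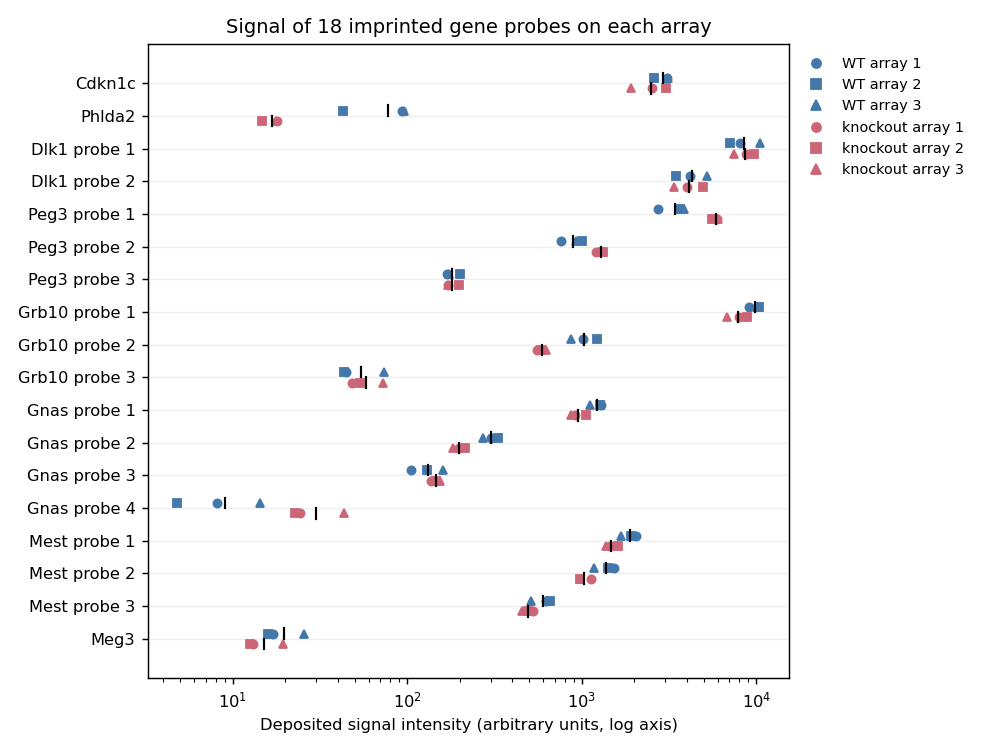
Deposited signal (log axis, arbitrary units) of the 18 tested probes on each of 3 WT (blue) and 3 knockout (red) arrays, with a black tick at each group mean. Probes of a gene are numbered by their WT signal, and the Phlda2 knockout arrays (14.6 to 17.9) all lie below the WT arrays (42.6 to 95.6), while the Peg3 probe 1 knockout arrays (5576 to 6050) lie above WT (2719 to 3836).

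Some values touch every result. Knockout arrays 1 and 2 also held lung transcripts, with a summed signal of 5 measured lung markers of 10 listed (among them Sftpc, a surfactant protein) of 7477 and 19949, against 298.5 on knockout array 3 and 246.2 to 263.4 on the WT arrays. Sftpc itself was at 1.6 to 10.7 in WT and at 2574, 6006 and 66.4 in the knockout. Of the 5 markers 2 were higher, Sftpc and Scgb1a1 (-2.6 to 8.1 in WT). Their WT signals were at the level of undetected probes. Both therefore entered the test through the knockout arrays alone, and their calls add nothing to the signals given. Their part in the results was not tested beyond the fits named here, and the level of each member on knockout array 3, which had little of these transcripts, is given beside its result. Summed signals of fibroblast and stellate cell markers (9 of 9 measured) overlapped, with 5001 to 6370 in WT and 5421 to 5909 in the knockout, and 0 changed. Sums of the endothelial, hepatocyte, hepatoblast, pancreas and erythroid lists did not overlap. Endothelial markers (6 of 7) summed to 4853 to 5801 and 6634 to 6775, with 1 higher, and hepatocyte markers (8 of 8) to 121230 to 124100 and 117670 to 119790, with 0 changed. Markers of hepatoblasts and fetal hepatocytes (5 of 6) summed to 21844 to 22985 in WT and 17730 to 20486 in the knockout, with 0 changed. Pancreas markers (3 of 9) summed to 9769 to 10983 in WT and 13179 to 14221 in the knockout, and erythroid markers (5 of 7) to 29791 to 30547 and 32652 to 36884, with 1 marker higher in each list. A sum without overlap does not mean that each marker moved. Pecam1, Cdh5, Tek and Stab2 of the endothelial list and Alas2 of the erythroid list overlapped between the genotypes, and the other markers of these lists did not. Most of the pancreas sum was Amy2a5 (9438.5 to 12858 over the arrays). The pancreas marker that was higher, Reg1, had signals of 7.4, 6.5 and 13.8 in WT and 806, 2134.6 and 51.6 on knockout arrays 1 to 3. Its WT signals too were at the level of undetected probes, so Reg1 entered the test through the knockout arrays alone. Skeletal muscle markers (2 of 6) overlapped, with 0 changed. For a transcript of liver tissue, fewer cells of a type and less RNA per cell cannot be told apart. The Xist signal was 1018 to 1984 on 3 arrays (WT array 1, knockout arrays 1 and 2) and 4.1 to 17.9 on the other arrays. Y-linked Eif2s3y had 619.2 to 886.6 on those 3 arrays and 925.3 to 1085 on the others, so the 3 arrays with Xist held Y-linked transcripts too. When sex chromosome genes were added to the fit, the number of called member probes was 6 of 18. Over all 21958 probes it was 2404, against 3511 in the fit without them.

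Among the inhibitors of growth, Phlda2 had the largest fold change of the 18 probes. It encodes a small protein with a pleckstrin homology domain that is known to restrain growth of the placenta. Its probe (ILMN_2425029) had signals of 93.5, 42.6 and 95.6 on WT arrays 1 to 3 and of 17.9, 14.6 and 17.6 on knockout arrays 1 to 3. All knockout arrays were below all WT arrays, and WT array 2 was the lowest of its group. The mean fell from 77.2 ± 30.0 to 16.7 ± 1.82 (SD, n = 3 each), which left 21.6% of the WT signal. On the log2 scale, with the offset of 16 that shrinks differences of dim probes, the change of Phlda2 was -1.43 ± 0.23 (SE; limma adjusted p = 0.00609), and it was -0.89 with an offset of 50. Only 81 of the 21958 probes (0.369%) fell at least as far.

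Phlda2 was a dim gene in these livers. Its mean level was at percentile 23.6 of the tested probes, and the knockout signals were close to background (detection p of 0.0267 to 0.0342), so the fold is not exact. Knockout array 3 (17.6) was as low as the arrays with lung transcripts. The call was lost without knockout arrays 1 and 2 together (-1.40, adjusted p = 0.122), where 1 knockout array is left and is assumed to vary like WT, and with the lung marker level as a covariate (-1.38, adjusted p = 0.0931).

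Cdkn1c, which lies near Phlda2 and encodes the cyclin-dependent kinase inhibitor p57Kip2, was bright and did not pass the test. Its probe (ILMN_2708203) had signals of 3089, 2593 and 3105 in WT and 2539, 3055 and 1910 in the knockout. The groups overlapped, and knockout array 3 was the lowest of the 6. The log2 fold change was -0.25 ± 0.17 (SE; 95% interval -0.64 to 0.15, limma adjusted p = 0.361). It ran from -0.40 to -0.067 with 1 array left out (knockout array 2 and knockout array 3), and was -0.61 without knockout arrays 1 and 2 and -0.69 with the lung covariate (adjusted p = 0.151 and 0.0773).

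Grb10 encodes an adaptor that binds the insulin and IGF1 receptors and dampens their signal. Its brightest probe (probe 1, ILMN_2518412) had signals of 9092, 10328 and 10051 in WT and 7951, 8799 and 6775 in the knockout. The groups did not overlap and 79.8% of the WT signal was left, but the log2 change of -0.33 ± 0.12 (SE) did not pass over all probes (limma adjusted p = 0.1). It passed with trend and robust variance (0.0314), and so did the mean of the Grb10 probes (0.0369). Probe 2 (ILMN_2546546) had signals of 1011, 1228 and 864.3 in WT and 555.6, 583 and 624.6 in the knockout. It fell by 0.79 ± 0.14 on the log2 scale (SE; limma adjusted p = 0.00781), to 56.8% of WT, and 2.6% of all probes fell as far. Knockout array 3 had the highest of the 3 knockout values. The call of probe 2 was lost without knockout arrays 1 and 2 together (-0.70, adjusted p = 0.172) and with the lung covariate (-0.70, adjusted p = 0.129).

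The other Grb10 probe did not pass the test. Probe 3 (ILMN_1257352) was dim, with signals of 44.5, 43.5 and 73.8 in WT and 47.9, 53.7 and 72.4 in the knockout, and a log2 fold change of 0.10 ± 0.19 (SE; 95% interval -0.34 to 0.53). Array 3 was the highest in both genotypes on this probe. The log2 difference between probes 2 and 3 on the same array was 3.93 ± 0.57 in WT and 3.04 ± 0.16 in the knockout arrays (SD, n = 3 each), and the groups did not overlap. An exact permutation test over arrays gave a two-sided p of 0.1, the smallest that 3 arrays against 3 allow (0.16 after adjustment over 16 such probe pairs). The other Grb10 pairs overlapped between the genotypes, with exact p of 0.2 for probes 1 and 2 and 0.3 for probes 1 and 3. The annotation assigns probes 2 and 3 to cDNA clones and probe 1 to a RefSeq transcript.

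**Figure D2:**
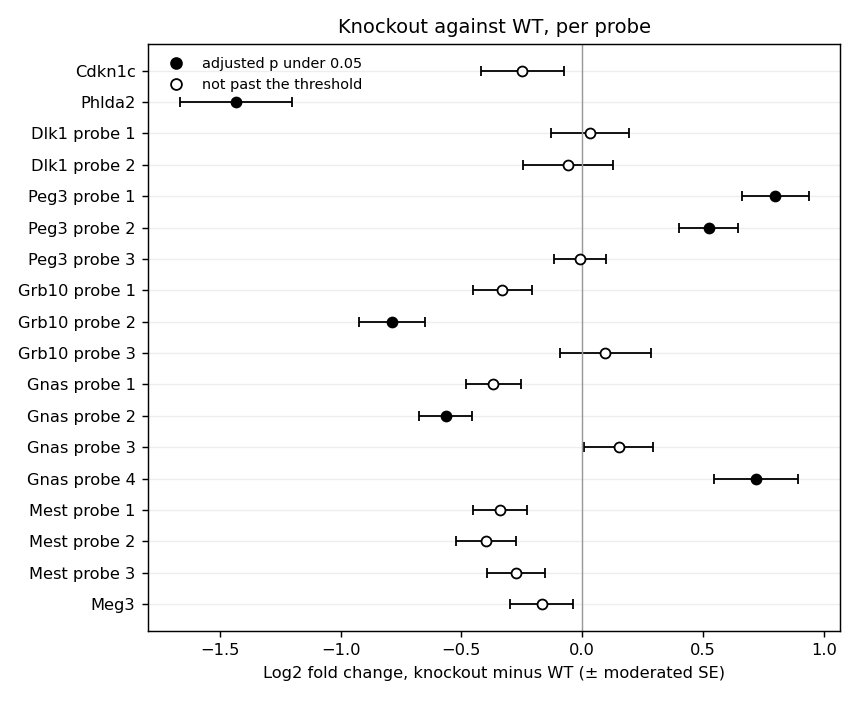
Log2 fold change of the 18 tested probes, knockout minus WT, with bars of 1 moderated standard error. Filled points passed an adjusted p of 0.05: Phlda2 (-1.43), Grb10 probe 2 (-0.79) and Gnas probe 2 (-0.56) were lower, and Peg3 probes 1 and 2 (0.80 and 0.52) were higher. Gnas probe 4 is filled too, but it was below detection in WT, so its plotted value is not a measured fold.

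Of the paternally expressed genes, Peg3 was higher in the knockout. Peg3 encodes a large zinc-finger protein known for roles in fetal growth and maternal behaviour. Its brightest probe (probe 1, ILMN_1245246) had signals of 2719, 3642 and 3836 in WT and 5972, 5576 and 6050 in the knockout. All knockout arrays were above all WT arrays, and knockout array 3 was the highest. The signal rose to 173% of WT, a log2 change of 0.80 ± 0.14 (SE; limma adjusted p = 0.00806), and 2.58% of all probes rose as far. Probe 2 (ILMN_2677270) had signals of 759.6, 1001 and 923.6 in WT and 1206, 1322 and 1329 in the knockout, again without overlap. It rose by 0.52 ± 0.12 on the log2 scale (SE; limma adjusted p = 0.0243).

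Another Peg3 probe did not pass the test. Probe 3 (ILMN_1225513) had signals of 168.7, 200.8 and 173.7 in WT and 169.9, 197.8 and 171.9 in the knockout, with a log2 fold change of -0.01 ± 0.11 (SE; 95% interval -0.26 to 0.24). The fourth (ILMN_1233819) was not above background on any array. On the same array, probe 1 exceeded probe 3 by 4.10 ± 0.23 on the log2 scale in WT and by 4.91 ± 0.17 in the knockout arrays (SD, n = 3 each), without overlap. The exact permutation p was 0.1, the smallest possible, and 0.16 after adjustment. With the probes of Peg3 averaged, the log2 change was 0.44. All 3 tested probes are annotated to the same RefSeq transcript, and where on it they lie was not analysed here. The call of probe 1 was lost without knockout arrays 1 and 2 together (0.84, adjusted p = 0.126) and with the lung covariate (0.86, adjusted p = 0.0851). Probe 2 lost its call in these settings and without WT array 1 or knockout array 1, 2 or 3 (0.41 to 0.57, adjusted p from 0.0613 to 0.0717).

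Dlk1, a transmembrane protein with EGF-like repeats that marks hepatoblasts, was among the brightest members and overlapped between the genotypes on both probes. Probe 1 (ILMN_2771738) had signals of 8026, 7057 and 10467 in WT and 8750, 9676 and 7481 in the knockout. Its log2 fold change was 0.03 ± 0.16 (SE; 95% interval -0.34 to 0.41, limma adjusted p = 0.916). Probe 2 (ILMN_1244618) had -0.06 ± 0.19 (95% interval -0.49 to 0.37). WT array 3 was the highest and WT array 2 the lowest of the WT arrays on both. The intervals do not exclude changes of about the size seen on Grb10 probe 1.

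Mest, a paternally expressed gene of the alpha/beta hydrolase family, had 75.3% to 82.0% of its WT signal left on its 3 probes, and none of these differences passed the test. Probe 1 (ILMN_2846904) had signals of 2045, 1913 and 1675 in WT and 1451, 1608 and 1375 in the knockout, and 78.7% of the WT signal was left. The groups did not overlap on probes 1 and 2 and overlapped on probe 3. Log2 fold changes were -0.34 ± 0.11, -0.40 ± 0.12 (probe 2, ILMN_2642417) and -0.27 ± 0.12 (probe 3, ILMN_2642418) (SE), with limma adjusted p of 0.0765, 0.0633 and 0.156. Probes 1 and 2 passed without WT array 3 (-0.42 and -0.50, adjusted p = 0.0429 and 0.0272), which was the lowest WT array on each. They also passed with an offset of 50 (0.0479 and 0.0409), with trend and robust variance (0.0318 and 0.0255) and with array weights (0.0257 and 0.0422).

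**Figure D3:**
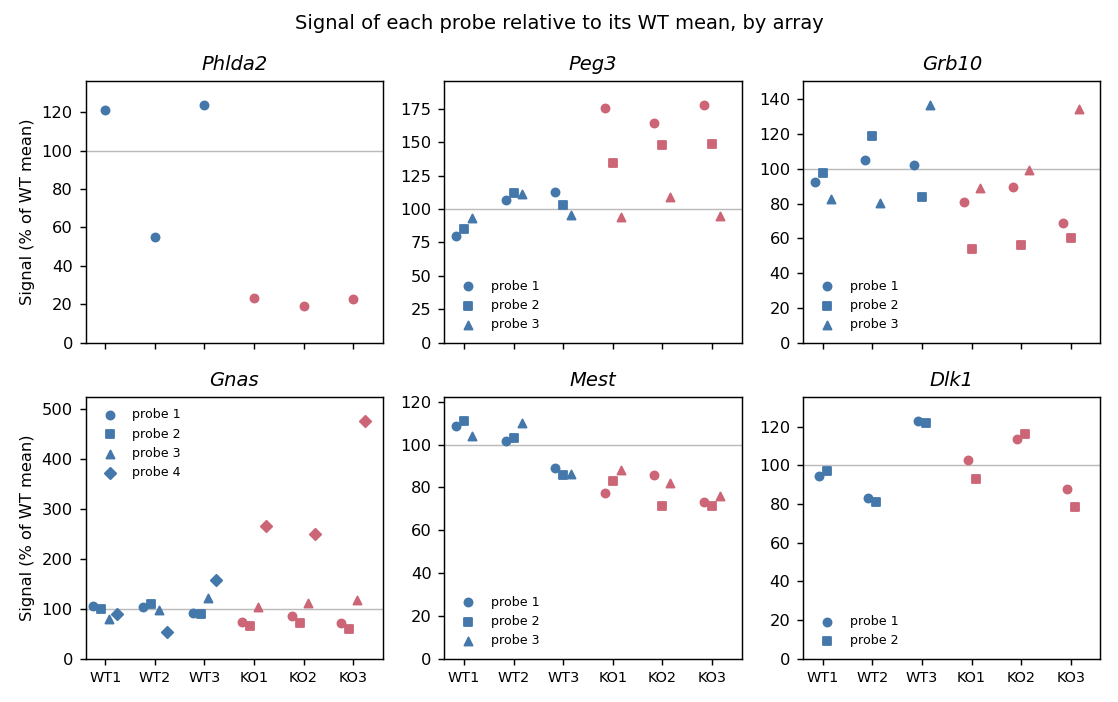
Signal of each tested probe of 6 genes as a percentage of its own WT mean (vertical axis from 0), for WT arrays 1 to 3 (blue) and knockout arrays 1 to 3 (red), with a grey line at 100%. On knockout array 1, Peg3 probe 3 is at 93.8% and Grb10 probe 3 at 88.8%, where Peg3 probe 1 is at 176% and Grb10 probe 2 at 53.7%. Grb10 probe 3 varies widely, from 80.7% to 137% on the WT arrays and from 88.8% to 134% on the knockout arrays.

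Gnas encodes the stimulatory G protein alpha subunit and, from other start sites, further imprinted products, and its 10 probes gave unlike results. Probe 1 (ILMN_2632206) had signals of 1295, 1270 and 1114 in WT and 914.2, 1060 and 869.1 in the knockout. The groups did not overlap, but the log2 change of -0.37 ± 0.11 (SE) missed the threshold (limma adjusted p = 0.0616), which it passed without WT array 3 (-0.44, adjusted p = 0.046), with an offset of 50 (0.0376), with trend and robust variance (0.0261) and with array weights (0.0206). With the 4 tested Gnas probes averaged the change was -0.02. That mean gives equal weight to probe 4, which was below detection on every WT array. Probe 2 (ILMN_1223437) had signals of 301.1, 331.6 and 271.4 in WT and 197.8, 214.7 and 182.7 in the knockout. It fell by 0.56 ± 0.11 on the log2 scale (SE; limma adjusted p = 0.0125), to 65.8% of WT, and knockout array 3 was the lowest. This call was lost without knockout array 1 (-0.56, adjusted p = 0.0526), without knockout arrays 1 and 2 together (-0.67, adjusted p = 0.119) and with the lung covariate (-0.70, adjusted p = 0.0705).

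Of the other Gnas probes, 1 was higher. Probe 3 (ILMN_1252926) had signals of 104.8, 129.4 and 160.8 in WT and 137.5, 146.2 and 154.7 in the knockout, with overlap and a log2 fold change of 0.15 ± 0.14 (SE; 95% interval -0.18 to 0.48), which was 0.015 without WT array 1 and 0.29 without WT array 3. Probe 4 (ILMN_2483957) had 8.1, 4.8 and 14.3 in WT and 24.2, 22.6 and 43.2 in the knockout. All WT arrays left it below detection, and it passed the filter through the knockout arrays alone, where it is high. Against the dimmest detected probes it was at least 1.43-fold higher. The limma adjusted p of 0.0291 does not test that bound, since it is for the values without that floor. Probe 4 missed the threshold when WT array 1, WT array 2 or knockout array 1 was left out (adjusted p = 0.0908, 0.0831 and 0.0579) and with no filter (0.0748). The other 6 probes were not above background on any array, with means between -3.03 and 10.6 in WT. The probes are annotated to several Gnas transcripts, one of them non-coding, and the annotation does not say which start site each reports. On the same array, probe 2 exceeded probe 3 by 1.12 ± 0.37 in WT and 0.40 ± 0.16 in the knockout on the log2 scale (SD, n = 3 each). These did not overlap, with an exact permutation p of 0.1, the smallest possible, and 0.16 after adjustment. Probes 1 and 3 overlapped (exact permutation p = 0.2), and probes 1 and 2 did not. The pairs with probe 4 did not overlap either. That probe entered through the knockout arrays alone, so no difference between genotypes is read from its pairs.

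Meg3 and Plagl1 were at or below the detection limit. Meg3, a maternally expressed long non-coding RNA, had 1 tested probe of 3 (ILMN_1227149), detected on 2 of 3 arrays of each genotype, with signals of 17, 15.9 and 25.7 in WT and 13.1, 12.6 and 19.3 in the knockout. The groups overlapped and array 3 was the highest in both, with a log2 fold change of -0.17 ± 0.13 (SE; 95% interval -0.47 to 0.13). It was -0.055 without WT array 3 and -0.0053 without knockout arrays 1 and 2. For Plagl1, a zinc-finger transcription factor described as a regulator of the network, 0 of 3 probes were above background on any array, with signals between -9.7 and 4.6. A change of Plagl1 was not detectable on these arrays.

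A wider list of 58 other genes reported as imprinted in at least 1 mouse tissue gives the background of the group. Of these, 52 had a probe and 34 a tested one, and by the brightest tested probe 2 were higher and 3 lower, where 7.75% and 8.29% of all genes were. The median log2 fold change of the 34 was 0.03, against 0.02 over all genes. Qpct, glutaminyl-peptide cyclotransferase, had signals of 953.9, 841 and 794.8 in WT and 440.9, 500.7 and 404.8 in the knockout. Without overlap it fell by 0.92 ± 0.12 on the log2 scale (SE; limma adjusted p = 0.0022). Inpp5f, an inositol polyphosphate phosphatase, fell from 554.5 ± 8.37 to 352.2 ± 9.01 (SD, n = 3 each), by 0.63 ± 0.086 on the log2 scale (SE; limma adjusted p = 0.00287). Pon3, a paraoxonase, fell by 0.37 ± 0.10 (limma adjusted p = 0.0441).

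The 2 genes that were higher were near background. Dio3, which inactivates thyroid hormone and lies in the cluster of Dlk1 and Meg3, was below detection on every WT array. It passed the filter through the knockout arrays alone, and was at least 1.32-fold higher. The limma adjusted p of 0.0312 does not test that bound, since it is for values that include WT signals below detection. Zdbf2 had signals of 13.6, 22.2 and 11.7 in WT and 28, 31 and 27 in the knockout, a log2 change of 0.46 ± 0.12 (SE; limma adjusted p = 0.0392). Dio3 missed the threshold when WT array 1, WT array 2, knockout array 2 or knockout array 3 was left out (adjusted p from 0.066 to 0.0883). Zdbf2 missed it on leaving out any 1 array other than WT array 2 (0.0777 to 0.123), and Pon3 on leaving out any 1 array (0.0508 to 0.13). Qpct was called in all alternatives run, and Inpp5f in all except without knockout arrays 1 and 2 together (-0.60, adjusted p = 0.111) and with the lung covariate (-0.60, adjusted p = 0.0684). The count for the list was 2 without WT array 1 or knockout array 2 or 3, and 3 without knockout array 1. Decorin (Dcn), an extracellular matrix proteoglycan, had signals of 7466 ± 171 in WT and 8475 ± 184 in the knockout on its brightest probe (SD, n = 3 each; limma adjusted p = 0.186). Of its 4 tested probes, 3 had a change of this sign, the brightest among them.

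**Figure D4:**
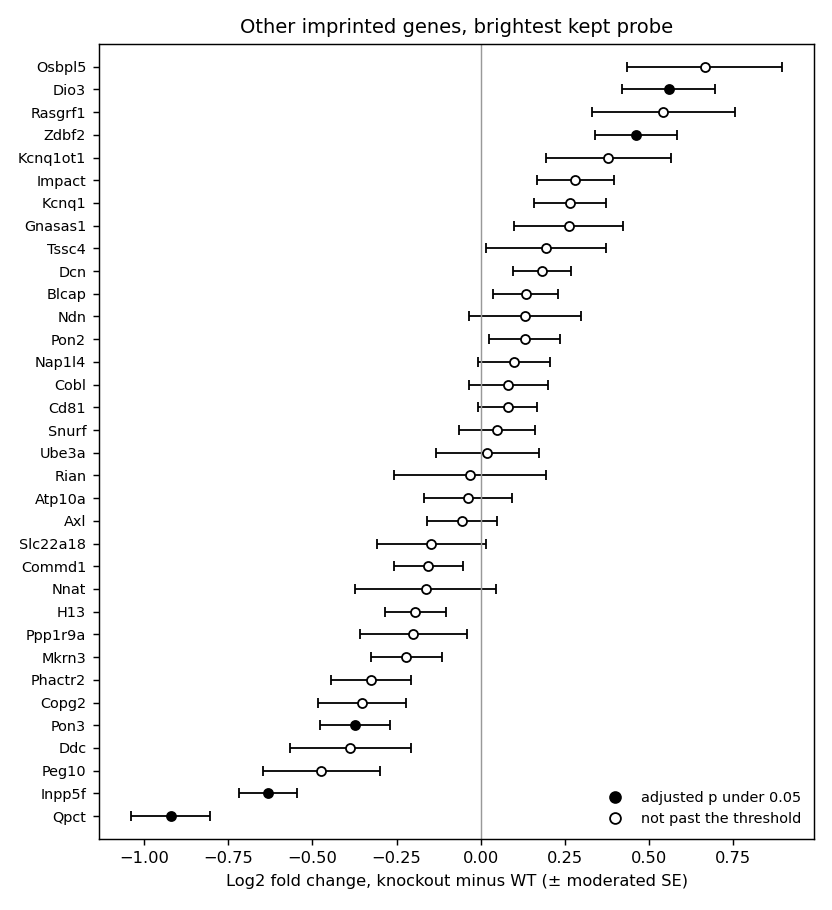
Log2 fold change of the 34 other imprinted genes with a tested probe, knockout minus WT, with bars of 1 moderated standard error and filled points for an adjusted p under 0.05. Points lie on both sides of 0, from Qpct (-0.92) to Osbpl5 (0.67), and 5 are filled. Dio3, filled, was below detection in WT, so its plotted value is not a measured fold.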

How the data were processed

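RNA was extracted with an RNeasy kit and labelled as biotinylated cRNA, per the labels' protocols. The authors deposited 2 tables of probe intensity with the same values, already background-subtracted and normalized between arrays (25.0% to 25.1% of values on each array are below 0, and sorted values of any 2 arrays differ by at most 0.2). One also holds detection p-values, deposited per probe and array. The sources used here do not state software or settings. IDs differed in 9535 rows, so rows were joined by their 6 intensities, and 0 of the 30 member probes had IDs of different genes. Of 45281 probes, 34885 have 1 symbol, 18 several and 10378 none. Symbols of 34807 were updated or matched through their Entrez gene ID in RefSeq, and how many of them changed was not counted. Probe coordinates are not printed, since no build is named.

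limma's neqc (version 3.58.1, R 4.3.3) took log2 after normexp correction with an offset of 16 and quantile normalization. The 21958 probes detected (detection p below 0.05) on 3 or more arrays were tested 1 by 1 with lmFit and eBayes, two-sided, with Benjamini-Hochberg adjustment over all of them. The comparison was tested on simulated data. A fold is given as at least N where no array of 1 genotype was above background: the mean of the brighter group over the mean, per array, of the higher of the probe and the dimmest detected probe. Promoter sequences are RefSeq's (GRCm38.p6), with 15 windows matched for 8 of 10 genes. Members, lists and tests were chosen with earlier results of these data known. Genes named are all members, Igf2, Igf2r, called genes of the wider imprinted list, marker and sex chromosome genes beside their lists, and the 3 genes most correlated with the brightest probe of each gene that had a called probe. Dcn and Osbpl5 were chosen after their values were seen. The number of arrays limits the precision. The percentage of probes detected was 46.3% to 49.9% per array, and correlations between arrays were 0.987 to 0.993 within a genotype and 0.970 to 0.978 between them. Alternatives were the deposited values with no further normalization (neqc had normalized values that already were), other offsets, filters and variance models, array weights, 1 value per gene, a replicate block, lung and sex covariates, and leaving out arrays.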

Additional observations from a re-analysis of the deposited data

How the results depend on the processing

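Over all probes, 3511 were called, and 1897 with 1 probe per gene, 1932 with probe means per gene (both over 11346 genes), 461 without knockout arrays 1 and 2 together, 739 with the lung covariate and 1698 to 3803 with 1 array left out. Of the 18 member probes 6 were called, and 9 with an offset of 50, 10 with trend and robust variance, 9 with array weights, 2 genes of 8 with 1 probe per gene, 3 of 8 with probe means, 1 (higher) without knockout arrays 1 and 2 and 1 (higher) with the lung covariate, and 3 to 9 with 1 array left out. Of the wider imprinted list 5 were called, and 3 with an offset of 50, with no filter, with detection on all 6 arrays or with the sex covariate, 9 with array weights, 1 without knockout arrays 1 and 2, 2 with the lung covariate and 2 to 6 with 1 array left out. The count over all 21958 probes was also larger in some of these settings, with 3824 for an offset of 50, 4077 for trend and robust variance and 5005 for array weights. It was 2404 with the sex covariate, 3404 of 19190 with detection on all 6 arrays and 3037 of 45281 with no filter. Same-numbered arrays of the genotypes deviated from their group means with correlations of 0.030, 0.043 and 0.060, against -0.108 to 0.081 for unlike numbers. The labels do not say whether the numbers pair the arrays, and these values cannot settle it. The fit with the replicate block called 2911 probes, 6 member probes and 5 genes of the list, and of the called member probes and called genes of the list lost Pon3 (adjusted p = 0.0587). Phlda2, Peg3 probe 1 and Grb10 probe 2 lost their calls without knockout arrays 1 and 2 and with the lung covariate, and kept them in the other alternatives they entered, among them leaving out any 1 array. The lung covariate was -1.59 to -1.54 on the WT arrays and 2.29, 3.50 and -1.09 on knockout arrays 1 to 3. It follows genotype apart from knockout array 3, so both settings rest largely on that array and are not separate checks. With this covariate the log2 changes of these 3 probes were -1.38, 0.86 and -0.70. Their SE rose from 0.23, 0.14 and 0.14 to 0.37, 0.22 and 0.22. Values of Igf2 and Igf2r under the alternatives are not given. Signs of uncalled probes reversed as follows. Dlk1 probe 1 had -0.013 with probe means, -0.17 without knockout arrays 1 and 2, -0.024 with the sex covariate, -0.22 with the lung covariate and -0.094 to 0.19 with 1 array left out. With 1 array left out, Dlk1 probe 2 ranged from -0.21 to 0.094, Peg3 probe 3 from -0.073 to 0.063 (0.0019 with the sex covariate) and Grb10 probe 3 from -0.040 to 0.29. Meg3 had 0.012 with the lung covariate. The cause of these shifts was not tested, and some of these settings also use fewer arrays or genes.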

Other observations

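For each gene with a called probe, the genes most like it over the 6 arrays are given as a description, by Pearson correlation of log2 levels of brightest tested probes, which share their arrays and the genotype difference. The brightest probes of Phlda2 and Peg3 were called, and those of Grb10 and Gnas were not. For Phlda2 these were Nup155, a nuclear pore protein (r = 0.996), Gpat3, a glycerol-3-phosphate acyltransferase (0.992), and Elovl6, a fatty acid elongase (0.992). For Peg3 they were Rp9 (0.998), Ndufaf4, an assembly factor of respiratory complex I (0.998), and Stx11, a syntaxin (0.997). For Grb10 they were Vwa5a (0.988), Sirt5, a mitochondrial deacylase (0.987), and Smyd1 (0.986), and for Gnas Abhd17b (0.999), Anks1 (0.998) and Spp2 (0.995). Of 11338 genes compared, 175, 247, 26 and 102 reached 0.95 with Phlda2, Peg3, Grb10 and Gnas, so the order among them has little weight with 6 arrays.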
